A study of Homo sapiens with 4 samples.

Results

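The HOX cluster genes were described in SK-N-SH cells, an established human neuroblastoma line. Members were the genes of the deposited transcript table whose symbol is HOX followed by the cluster letter A, B, C or D and a number, which gave 40 gene IDs for 39 symbols out of 57820 gene IDs in all. The HOXA cluster on chromosome 7 had 11 gene IDs, the HOXB cluster on chromosome 17 had 10, the HOXC cluster on chromosome 12 had 10 and the HOXD cluster on chromosome 2 had 9. HOXC4 is listed under 2 gene IDs, ENSG00000198353.6 and ENSG00000273266.1.

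RNA of bulk cultures was sequenced to find genes that respond to the long noncoding RNA RP5-998N21.4. Cells of the vector control carried an empty lentivirus, and OE cells carried a lentivirus in which the EF1a promoter drives RP5-998N21.4, with 2 libraries in each group. The control libraries are titled WT, while their treatment label names the empty vector, which was followed. No source used here says whether the libraries of a group came from separate cultures or transductions, so the p-values measure only the spread between these libraries, which may be technical. Library totals ran from 23785164 to 28307591 counts, and RP5-998N21.4 itself had 32 and 33 counts in the vector control against 2407 and 2808 in OE. Of the 9 sympathoadrenal markers chosen to check the cell type, 8 were above a mean of 1 CPM (the count relative to library size after TMM normalization) and TH, the enzyme that starts catecholamine synthesis, was listed at 0. Blood and endothelial markers were at or near 0, with summed levels up to 0.138 CPM.

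HOX genes encode transcription factors that bind DNA through a homeodomain and set the identity of cells along the head-to-tail axis of the embryo. They lie in clusters in which the order along the chromosome follows the order of expression along the axis, and genes at the same place in different clusters form a paralogue group, numbered from the anterior end. Trunk neural crest, from which the sympathetic lineage of neuroblastoma derives, expresses HOX genes according to its axial level, and adult cells keep part of such a code through chromatin marks set by Polycomb and Trithorax proteins.

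The homeobox, the 180-base stretch that encodes the homeodomain, is shown for 4 members with high levels, because their likeness bears on how reads can be assigned. Each stretch is read 5′ to 3′ from hg19 on the plus strand, lies within 1 exon, and carries in capitals the 18 bases that code for a conserved stretch of the DNA recognition helix.
HOXC4 (chr12:54448660-54448839): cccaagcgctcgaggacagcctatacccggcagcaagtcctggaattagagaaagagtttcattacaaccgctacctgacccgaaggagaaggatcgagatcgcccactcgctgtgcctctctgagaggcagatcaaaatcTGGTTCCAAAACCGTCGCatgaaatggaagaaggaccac
HOXD8 (chr2:176996056-176996235): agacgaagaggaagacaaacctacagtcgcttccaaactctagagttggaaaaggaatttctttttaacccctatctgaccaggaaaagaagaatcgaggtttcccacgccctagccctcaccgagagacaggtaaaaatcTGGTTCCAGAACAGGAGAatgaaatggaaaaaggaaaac
HOXC9 (chr12:54396249-54396428): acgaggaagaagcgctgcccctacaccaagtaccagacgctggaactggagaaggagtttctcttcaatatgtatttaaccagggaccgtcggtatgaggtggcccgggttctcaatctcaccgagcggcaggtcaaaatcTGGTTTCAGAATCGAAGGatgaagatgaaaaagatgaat
HOXD9 (chr2:176988697-176988876): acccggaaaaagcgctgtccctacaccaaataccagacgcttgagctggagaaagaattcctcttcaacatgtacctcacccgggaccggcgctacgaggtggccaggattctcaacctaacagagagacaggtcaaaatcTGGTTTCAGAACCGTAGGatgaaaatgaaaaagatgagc
Within these stretches HOXC9 and HOXD9 were identical at 150 of 180 bases (83.3%). Over annotated transcripts, the longest exact run that an expressed HOX gene shared with a HOX gene of another cluster ranged from 23 to 62 bases. That between HOXD9 and HOXB9 was 40 bases. These runs were all shorter than the reads of the study.

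SK-N-SH cells expressed HOX genes of the HOXC and HOXD clusters and almost none of the HOXA and HOXB clusters. A gene was called expressed at a mean of at least 1 CPM over the 4 libraries. By this rule 13 gene IDs of 13 symbols were expressed, 6 in HOXC and 7 in HOXD, with 0 of 11 in HOXA and 0 of 10 in HOXB. The HOXC cluster held 43.8% of the 17885 counts assigned to HOX genes and the HOXD cluster 55.9%, and all HOX genes together took 0.0177% of the counts in the 4 libraries.

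The 21 HOXA and HOXB gene IDs summed to 60 counts over all libraries, and 14 of them had no count in any. In HOXA, HOXA10 had 4 counts in OE 2 and HOXA11 had 5 in OE 1, and no count was listed elsewhere. In HOXB, HOXB3 had 1 count in OE 2, HOXB8 had 5 in OE 2, HOXB13 had 4 in vector control 2, and HOXB7 had 5 in vector control 2 and 5 in OE 2. HOXB9, a posterior HOXB gene of the paralogue group of HOXC9 and HOXD9, had the most, with 0 and 0 counts in the control libraries against 5 and 26 in OE. Where a library had no count, up to 3 counts were taken as possible, which corresponds to 0.104 to 0.129 CPM in these libraries, so expression below that level was not detectable at this depth. Such limits cover counting error only, because the reads carry no molecular identifiers.

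The expressed members covered 9 of the 13 paralogue groups. Paralogue groups 4, 8, 9 and 10 had an expressed member in both clusters, groups 1, 3 and 11 in HOXD alone, and groups 5 and 6 in HOXC alone. HOXC has no gene of groups 1 and 3, and HOXD none of groups 5 and 6. The groups with no expressed member were 2, 7, 12 and 13. Of these, HOXC and HOXD have no gene of groups 2 and 7, while both have genes of groups 12 and 13. HOXC4 to HOXC6 and HOXC8, of the central part of the cluster, held 6558 counts with the minor HOXC4 ID included, against 1271 in the posterior HOXC genes. In HOXD the anterior genes HOXD1 and HOXD3 held 2287 counts, HOXD4 and HOXD8 held 3258 and the posterior genes 4451, of which HOXD9 gave 3825.

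Levels between genes were compared as CPM per kb of merged exon length, averaged over the 4 libraries. HOXD9 was the highest HOX gene at 20.1 CPM per kb, with libraries from 16.4 to 22.4, and no other HOX gene reached its lowest library. HOXC4 (ENSG00000273266.1) followed at 12.9 CPM per kb (10.9 to 14.9), then HOXD8 at 11.9 (10.5 to 12.8) and HOXC5 at 10.3 (9.61 to 11.2). The library ranges of these neighbours overlapped, although HOXC5 was below HOXC4 and HOXD8 within each library. A middle set was formed by HOXC9 at 6.45 CPM per kb (5.31 to 8.23), HOXD3 at 5.35 (3.27 to 7.53), HOXC6 at 4.56 (3.78 to 5.51) and HOXC8 at 4.25 (3.96 to 4.57). Each neighbour in this order overlapped the next, while HOXC9 lay above HOXC8 in every library. The place of HOXD3 is uncertain, because the exons of ENST00000468418.3, which holds most of its counts, are not in the annotation that gave the length. It also differed by group. In the vector control HOXD3 was the lowest of this set, at 3.50 and 3.27 CPM per kb. In OE it was the highest, at 7.53 and 7.11. A low set held HOXD1 at 1.30 CPM per kb, HOXD10 at 1.26, HOXD11 at 1.26, HOXD4 at 1.15 and HOXC10 at 0.716. HOXD4 ranged from 0 in both OE libraries to 2.12 and 2.47 in the vector control, where it was the highest of this set, so its mean over all libraries describes neither group.

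Within paralogue groups, the HOXD gene was the higher one in 8 and 9. The CPM per kb of HOXD9 was 2.35 to 3.94 times that of HOXC9 over the 4 libraries, and that of HOXD8 was 2.62 to 3.21 times that of HOXC8. HOXD10 was 1.11 to 4.60 times HOXC10, with the highest value in OE 1, where HOXC10 had its fewest counts. In group 4 the order was the opposite, with HOXC4 above HOXD4 in every library. Exons of 10 of the 13 expressed gene IDs overlap exons of another annotated gene, among them HOXC6 with HOXC4 over 484 bases and HOXD10 with HOXD11 over 452 bases on the same strand, and HOXD8 with HOXD-AS2 over 642 bases on the opposite strand. The use of strand in counting is not given in the sources used here, so reads from these overlaps cannot be told apart. The exons of ENSG00000273266.1 lie within those annotated for ENSG00000198353.6, so how the HOXC4 counts divide between the IDs is uncertain. Their sum was 506 and 447 counts in the control libraries against 581 and 748 in OE.

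**Figure D1:**
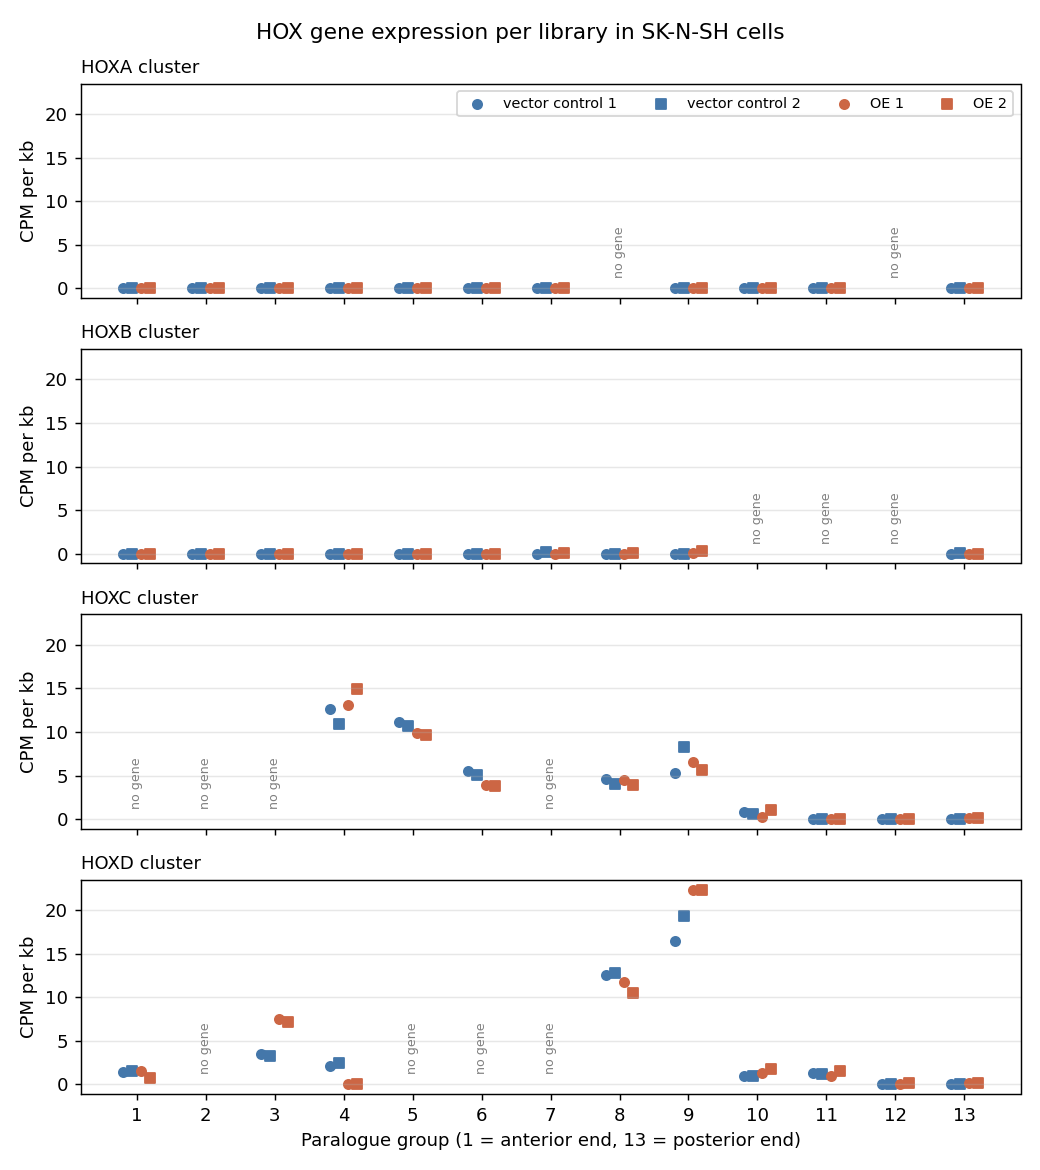
Level of each HOX gene in CPM per kb of exon (vertical axis, linear) against its paralogue group (horizontal axis), 1 panel per cluster, with 1 point per library (blue, vector control; orange, OE; circles, replicate 1; squares, replicate 2). HOXC4 is shown as ENSG00000273266.1. The HOXA and HOXB panels lie at or near 0, and the highest points, from 16.4 to 22.4 CPM per kb, belong to HOXD9.

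The question of the comparison was whether HOX expression differed between OE and vector control. The clusters as wholes differed little. Summed HOXC counts were 1881 and 1846 in the control libraries against 1892 and 2210 in OE, which is 79.7 ± 1.57 CPM (SD, n = 2) against 75.9 ± 0.710 CPM (SD, n = 2) and a log2 ratio of -0.07. Summed HOXD counts were 2028 and 2180 in the control libraries against 2744 and 3044 in OE, which is 89.9 ± 4.02 CPM (SD, n = 2) against 107 ± 2.91 CPM (SD, n = 2) and a log2 ratio of 0.25. On the CPM scale the OE libraries were above each control library for HOXD and below each for HOXC. Of the HOXD sum, HOXD3 alone made up a mean of 12.5 CPM in the vector control and 27.1 CPM in OE. The HOXD sum was not taken without HOXD3. No test was run on these sums, and with 2 libraries per group an exact two-sided permutation test cannot give a p below 0.333. In bulk RNA, fewer cells that express a gene and less RNA per cell cannot be told apart.

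**Figure D2:**
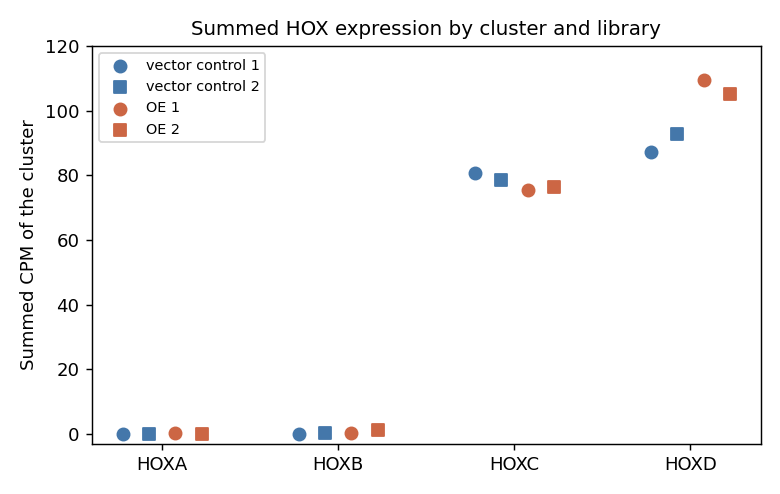
Summed CPM of the HOX genes of each cluster (vertical axis) by cluster, with 1 point per library (blue, vector control; orange, OE; circles, replicate 1; squares, replicate 2). HOXA and HOXB lie near 0, the HOXC points lie close together, and the HOXD points of OE lie above those of the vector control.

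Of the 40 gene IDs, 14 passed the filter on low counts and were tested in the fit over all 20528 genes, 7 of HOXC and 7 of HOXD. With Benjamini-Hochberg adjustment of edgeR's quasi-likelihood p, 0 of the 14 passed the study's thresholds (adjusted p under 0.01, log2 fold change beyond 0.5 either way), as did 0 (0%) of all genes. The overexpressed RP5-998N21.4 itself did not pass, with an adjusted p of 0.0109 by the same test. At an adjusted p under 0.05 the HOX count was also 0, against 0.594% of all genes, and at one under 0.1 it was 2, HOXD3 and HOXD4, against 4.78%. When p was left unadjusted, 1 HOX gene was higher in OE at a p under 0.05, HOXD3, against 10.1% of all genes, and 2 were lower, HOXD4 and HOXC6, against 10.7% of all genes. These 3 of 14 stand beside 20.8% of all genes at that p. With DESeq2 at the study's thresholds 2 of the 14 were called, against 8.77% of all genes: HOXD3 as higher, against 4.35%, and HOXD4 as lower, against 4.42%. The median log2 fold change of the 14 was -0.10, with 5 above 0 and 9 below, and 10 lay within 0.5 of 0. With single libraries left out, the median over the same 14 was -0.14 without vector control replicate 2 and from 0.0046 to 0.05 without each of the others, so its sign is not settled. The median over all genes tested was 0.01. At the unadjusted p, the HOX genes thus did not stand out from the other genes in number.

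**Figure D3:**
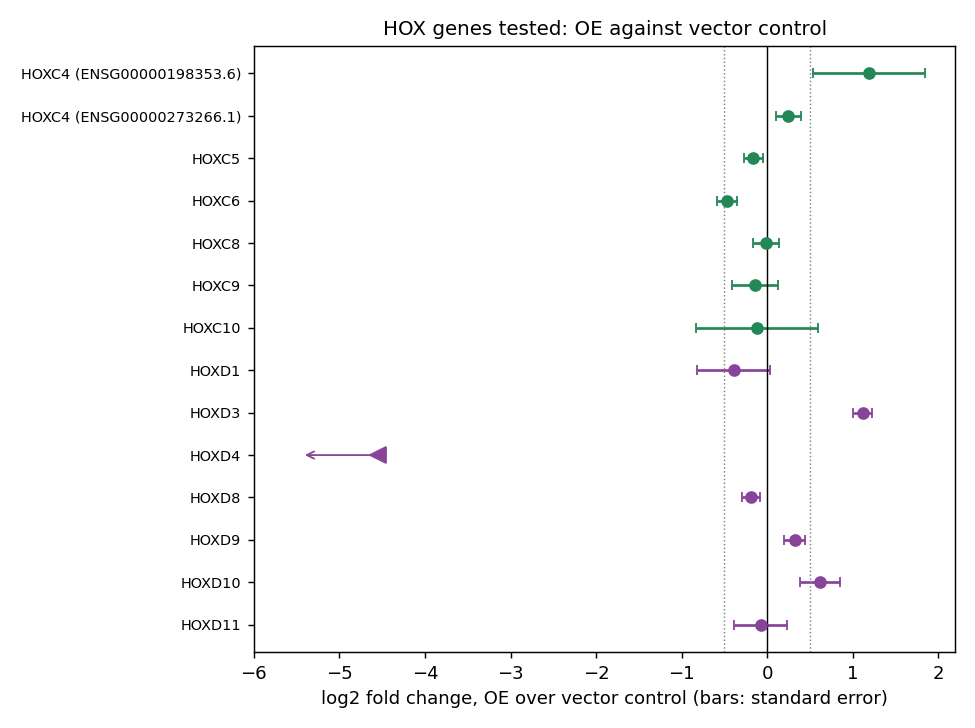
The log2 fold change of OE over vector control (horizontal axis) with its standard error for the 14 HOX gene IDs tested (green, HOXC; purple, HOXD), with dotted lines at the study's fold threshold of 0.5. The arrow of HOXD4 starts at its bound, since both OE libraries had 0 counts; HOXD3 lies at 1.11, and most others lie within the dotted lines.

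HOXD3 and HOXD4 are neighbours at the anterior part of the HOXD cluster and differed in opposite directions, neither past the study's thresholds by edgeR. HOXD3 (ENSG00000128652.7, chr2:177001340-177037830, hg19, plus strand), a regulator of adhesion molecules in other cells, had 301 and 284 counts in the control libraries against 699 and 761 in OE. In CPM each OE library was more than 2 times as high as either control library, with 12.5 ± 0.594 CPM (SD, n = 2) for the controls and 27.1 ± 1.09 CPM (SD, n = 2) for OE. Its log2 fold change was 1.11 with a standard error of 0.113 (adjusted p = 0.0643 by edgeR's quasi-likelihood test). DESeq2 gave the same fold change with an adjusted p of 6.4e-16. HOXD4 (ENSG00000170166.5, chr2:177016278-177017954, hg19, plus strand), which helps to pattern the hindbrain and cervical vertebrae, had 56 and 66 counts in the control libraries against 0 and 0 in OE. With 3 counts per OE library as the limit, its level was at least 23.4-fold lower in OE, and its adjusted p was 0.0690 by edgeR and 2.2e-07 by DESeq2.

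The transcripts behind these totals were not alike in the control libraries. The transcript of HOXD3 with the most counts, ENST00000468418.3, had 0 and 251 counts in the control libraries against 630 and 650 in OE. ENST00000249440.3 had 110 and 0 counts in the control libraries against 2 and 4 in OE, and ENST00000410016.1 had 117 and 0 against 0 and 3. ENST00000459979.2 had 74 and 33 counts in the control libraries against 67 and 104 in OE. Vector control 2 thus had nearly the same transcript makeup as the OE libraries, with 88.4% of its HOXD3 counts on ENST00000468418.3 against 90.1% and 85.4% in OE, while vector control 1 had 0% there. The gene total and ENST00000468418.3 were higher in both OE libraries than in both controls, the other transcripts with counts were not. With the single transcript of the highest mean count the log2 fold change was 2.15 at an adjusted p of 0.778 by edgeR's quasi-likelihood test.

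The HOXD4 gene lies inside the span annotated for HOXD3, and none of its exons overlapped an exon of another gene. In the lifted annotation, ENST00000459979 ends before HOXD4 (chr2:177001340-177004391), while ENST00000410016 and ENST00000249440 start beyond it (chr2:177025619-177037813 and chr2:177028805-177037830). ENST00000432796, which runs across HOXD4, had 0 counts in all libraries. ENST00000468418.3 is not in that annotation, so its exons could not be set against HOXD4. Summed as a unit, HOXD3 and HOXD4 had 357 and 350 counts in the control libraries against 699 and 761 in OE, with a log2 fold change of 0.84, a standard error of 0.106 and an adjusted p of 0.0769 by edgeR's quasi-likelihood test. The sum was still higher in both OE libraries, and HOXD4 differed by far fewer counts than HOXD3. Whether counts passed from the one gene to the other was not tested.

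**Figure D4:**
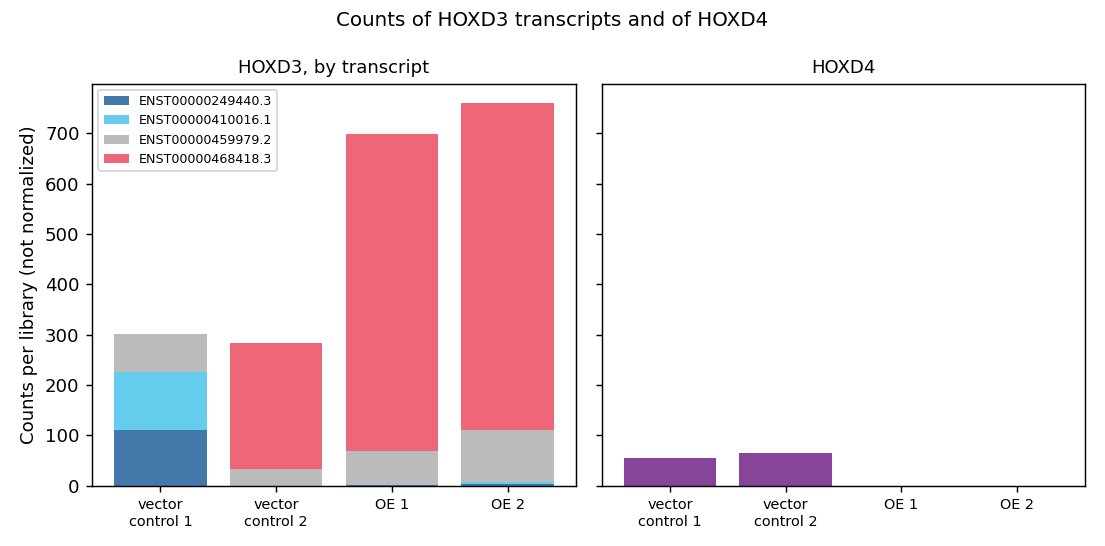
Counts per library, not normalized (vertical axis, from 0), of HOXD3 stacked by transcript (left) and of HOXD4 (right), for the 2 vector control and 2 OE libraries (horizontal axis). HOXD3 totals were 301 and 284 against 699 and 761, vector control 1 held no count of ENST00000468418.3, and HOXD4 had counts in the vector control libraries only.

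The promoters of the pair differ in base composition. They are shown from 250 bases before to 50 after the start in RefSeq's GRCh38.p14, plus strand, 5′ to 3′. Capitals mark CCAAT (both strands, read as ATTGG on the other), GGGCGG (both strands, CCGCCC on the other) and the homeodomain palindrome TAATTA.
HOXD3 (chr2:176157057-176157356): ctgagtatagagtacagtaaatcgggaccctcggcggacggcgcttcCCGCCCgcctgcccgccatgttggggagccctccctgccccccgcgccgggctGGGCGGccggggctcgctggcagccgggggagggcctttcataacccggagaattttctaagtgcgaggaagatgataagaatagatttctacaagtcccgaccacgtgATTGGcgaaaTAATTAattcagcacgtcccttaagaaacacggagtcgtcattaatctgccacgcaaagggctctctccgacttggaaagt
HOXD4 (chr2:176151300-176151599): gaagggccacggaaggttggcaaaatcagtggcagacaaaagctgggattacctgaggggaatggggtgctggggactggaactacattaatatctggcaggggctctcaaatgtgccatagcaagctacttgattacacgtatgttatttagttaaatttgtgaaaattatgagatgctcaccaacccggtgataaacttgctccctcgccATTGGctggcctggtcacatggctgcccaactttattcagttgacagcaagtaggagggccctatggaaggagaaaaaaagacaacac
Matched by sequence to hg19, the RefSeq start in the HOXD4 window is the annotated start of HOXD4. That in the HOXD3 window is the start of ENST00000683222 (chromosome 2, position 177022035), which is not the start of the 3 annotated HOXD3 transcripts with counts. The start of ENST00000468418.3 is not in that annotation, so whether the window belongs to the counted transcripts is not known. The HOXD3 promoter had 58.0% GC and an observed-over-expected CpG ratio of 0.99, and the HOXD4 promoter had 47.3% GC and a ratio of 0.24. HOX promoters matched in RefSeq numbered 20 of 39 symbols, of which HOXC4 and HOXC5 share 1 window that lies at the start of neither expressed ID. Without that pair the median CpG ratio was 0.88 for 6 expressed genes. It was 0.86 for the 12 symbols not expressed and 0.58 over 35116 promoters of the same length, so HOXD4 lay below all these medians. Of the letters searched on both strands, CCAAT was held by 17 of the 26 distinct windows of these symbols and by 34.6% of all promoters, GGGCGG by 13 and 45%, TATAAA by 5 and 11.5%, TAATTA by 2 and 4.84%, and the HOX-PBX site TGATTNAT by 2 and 2.82%. A match describes the letters in these windows only.

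HOXC6, a central HOXC gene whose product marks trunk identity, was the other member with an unadjusted p under 0.05. It had 444 and 413 counts in the control libraries against 337 and 378 in OE, with both OE libraries below both controls, at 18.3 ± 1.05 CPM (SD, n = 2) against 13.2 ± 0.256 CPM (SD, n = 2). Its log2 fold change was -0.47 with a standard error of 0.118 (adjusted p = 0.160 by edgeR's quasi-likelihood test), and DESeq2 gave an adjusted p of 0.00492 at a fold change under the study's threshold of 0.5.

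The 2 highest HOXD genes did not pass. HOXD9, which is used with HOXC9 to pattern the trunk and limb, had 715 and 851 counts in the control libraries against 1050 and 1209 in OE, a log2 fold change of 0.32 (adjusted p = 0.264 by edgeR's quasi-likelihood test). Its OE libraries were 41.8 CPM each, against 30.7 and 36.2 in the controls. HOXD8 had 772 and 789 counts in the control libraries against 778 and 797 in OE, with a log2 fold change of -0.19 (adjusted p = 0.412). The ratio of HOXD9 to HOXD8 in CPM per kb was 1.30 and 1.52 in the vector control and 1.90 and 2.13 in OE, so HOXD9 led HOXD8 in all 4 libraries and by more in both OE libraries.

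HOXD10, a posterior gene of limb and lower spinal cord, had 56 and 60 counts in the control libraries against 82 and 126 in OE, a log2 fold change of 0.62 (adjusted p = 0.259 by edgeR's quasi-likelihood test). HOXD11 had 67 and 61 counts against 50 and 92, and HOXD1, the most anterior HOXD gene, had 61 and 69 against 72 and 40. The libraries of HOXD11 and HOXD1 overlapped between the groups, and their log2 fold changes were -0.08 and -0.39. With single libraries left out, that of HOXD1 ran from -1.003 without OE replicate 1 to 0.05 without OE replicate 2, whose HOXD1 count was the lowest.

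The remaining HOXC members were not called and had no unadjusted p under 0.05 by edgeR. HOXC4 (ENSG00000273266.1) had 502 and 438 counts in the control libraries against 560 and 735 in OE (log2 fold change 0.25). Its minor ID ENSG00000198353.6 had 4 and 9 against 21 and 13, with a log2 fold change of 1.19 at these low counts. HOXC5 had 420 and 403 counts against 400 and 448 (log2 fold change -0.16). HOXC8, of the thoracic part of the axis, had 257 and 226 counts against 273 and 277 (log2 fold change -0.01). HOXC9 had 206 and 322 counts against 276 and 273, with its lowest and highest library CPM both in the vector control. HOXC10 had 48 and 35 counts against 17 and 74, its lowest and highest both in OE. Their adjusted p by edgeR's quasi-likelihood test ranged from 0.395 for the minor HOXC4 ID to 0.968 for HOXC8. Over the 14 tested, the libraries did not overlap between the groups for 5 with higher CPM in OE, against 27.8% of all genes, and for 4 with lower CPM, against 27.6%. That is 9 of 14 in either direction, against 55.4%.

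Posterior members near the limit of detection were untested. HOXD13, the most posterior HOXD gene and a limb regulator, had 0 and 0 counts in the control libraries against 13 and 10 in OE, and was at least 3.37-fold higher there with 3 counts per control library as the limit. HOXC13 had 0 and 0 counts against 8 and 8, at least 2.32-fold higher, and HOXB9 was at least 4.28-fold higher on the same basis, mainly from OE 2. HOXD12 had 9 counts and HOXC11 had 4, all in OE 2, and HOXC12 had none. These were all below 1 CPM and none of their controls had a count. Library totals were 24098041 counts in vector control 2, 24601728 in OE 1 and 28307591 in OE 2. Whether depth bears on these counts was not tested.

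Genes known to set or read the HOX code were examined as lists. HOX proteins bind DNA with TALE cofactors, and of the 9 listed 7 were tested, with 0 higher and 0 lower at an unadjusted p under 0.05 by edgeR, against 10.1% and 10.7% of all genes, and 0 called by DESeq2 at the study's thresholds, against 8.77%. MEIS2 had 331 and 2956 counts in the control libraries against 2620 and 3215 in OE, and its control libraries were far apart.

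Polycomb proteins keep HOX clusters silent, and 15 of the 16 listed were tested, with 1 higher and 2 lower at an unadjusted p under 0.05 by edgeR, against 10.1% and 10.7% of all genes. PHC2, a subunit of the canonical PRC1 complex, had 5316 and 5549 counts in the control libraries against 752 and 899 in OE, and its log2 fold change was -2.93 with a standard error of 0.0775 (adjusted p = 0.0123 by edgeR's quasi-likelihood test). Its OE libraries were far below the controls. It was the 1 member of the 15 tested that DESeq2 called at the study's thresholds, as lower, against 4.42% of all genes. EZH2, the H3K27 methyltransferase, had 389 and 402 counts against 325 and 349 (log2 fold change -0.43, adjusted p = 0.177 by edgeR), and CBX2, a chromodomain subunit of PRC1, had 1811 and 1940 against 2620 and 2868 (log2 fold change 0.34, adjusted p = 0.157 by edgeR). DESeq2 gave EZH2 an adjusted p of 0.00919 and CBX2 one of 0.000321, with fold changes under the threshold. RING1 was listed at 0 in all 4 libraries. Of the Trithorax group and H3K27 demethylases, which oppose Polycomb, 10 of 10 were tested, with 0 higher and 0 lower at an unadjusted p under 0.05 by edgeR, against 10.1% and 10.7% of all genes, and 0 called by DESeq2, against 8.77%.

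Of the 11 upstream signals and factors, 8 were tested, with 2 higher and 3 lower at an unadjusted p under 0.05 by edgeR, against 10.1% and 10.7% of all genes. KAT6A, a histone acetyltransferase needed for HOX expression, had 2835 and 2656 counts in the control libraries against 989 and 1255 in OE, and its log2 fold change was -1.50 with a standard error of 0.103 (adjusted p = 0.0424 by edgeR's quasi-likelihood test). GDF11, a ligand that promotes posterior HOX genes, had 2130 and 1980 counts against 1344 and 1512 (log2 fold change -0.73, adjusted p = 0.0768 by edgeR). Both were lower in both OE libraries, and DESeq2 called 3 of the 8 at the study's thresholds, KAT6A, GDF11 and RARB, all as lower, against 4.42% of all genes.

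Of the retinoic acid receptors, RARB had 390 and 366 counts in the control libraries against 191 and 180 in OE (log2 fold change -1.22, adjusted p = 0.0797 by edgeR), while RARA had 754 and 567 against 1139 and 1133 (log2 fold change 0.58, adjusted p = 0.227 by edgeR). RARG had 2191 and 2317 against 2159 and 597, with OE 2 far below the other libraries (log2 fold change -0.85, adjusted p = 0.570 by edgeR). CDX1, a caudal factor that activates HOX genes, had 8 and 13 counts against 29 and 46 (log2 fold change 1.61, adjusted p = 0.168 by edgeR), and CDX2, CDX4 and CYP26A1 were listed at 0.

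Among the noncoding RNAs of the clusters, those above 1 CPM were both of HOXD. Of 23 symbols found in the table, 15 had no count, among them HOTAIRM1 and HOTTIP of HOXA and HOXB-AS1 to HOXB-AS4, and 2 were tested. HOXD-AS1, antisense to HOXD1 and HOXD3, had 980 and 1063 counts in the control libraries against 815 and 1180 in OE, and HOXD-AS2 had 69 and 135 against 99 and 146. Their log2 fold changes were -0.25 and 0.05, with adjusted p of 0.426 and 0.960 by edgeR's quasi-likelihood test. HOTAIR, between HOXC11 and HOXC12, had 0 counts in 3 libraries and 5 in OE 2, and HOXC-AS1 had 4 and 4 counts in the control libraries against 7 and 11 in OE, so the noncoding RNAs of HOXC were low although its coding genes were expressed.

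Genes flanking the clusters were expressed also beside HOXA, while EVX1 of HOXA and SKAP1 and PRAC1 of HOXB were listed at 0. SKAP2, beside HOXA, had 355 to 416 counts, CBX5, beside HOXC, had 8318 to 10521, and MTX2, beside HOXD, had 340 to 492. Of the 12 flanking genes 8 were tested, with 1 higher and 1 lower at an unadjusted p under 0.05, against 10.1% and 10.7% of all genes. CALCOCO1 had 1060 and 1160 counts in the control libraries against 1483 and 1630 in OE, and SMUG1 had 557 and 1198 against 378 and 371, both near HOXC. Their log2 fold changes were 0.28 and -1.43, and neither had an adjusted p under 0.05 by edgeR. DESeq2 called SMUG1 alone of the 8, as lower at the study's thresholds, against 4.42% of all genes. With only the transcript of the highest mean count, the log2 fold change of CALCOCO1 was 0.15. That of SMUG1 was -12.73, a fitted value that depends on the prior count.

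Markers of the sympathoadrenal list differed between the groups beside these results. Of 8 sympathoadrenal markers tested, 6 were higher in OE and 0 lower at an unadjusted p under 0.05 by edgeR, against 10.1% and 10.7% of all genes, and DESeq2 called 5 as higher, against 4.35%. The summed level was 414 to 483 CPM in the vector control and 776 to 825 CPM in OE. CHGA had 1157 and 1141 counts against 3412 and 3512, with an adjusted p of 0.0449 by edgeR's quasi-likelihood test. Of 5 mesenchymal markers 0 were higher and 2 lower, SNAI2 and PRRX1, against 10.1% and 10.7% of all genes by edgeR. DESeq2 also called both, against 4.42%. The list had a summed level of 1316 to 1356 CPM in the vector control and 1160 and 2124 CPM in OE, the last from VIM in OE 1. Of 2 epithelial markers tested 1 was lower, KRT8, against 10.7% of all genes by edgeR and also called by DESeq2, against 4.42%. CDH1 was at 0, and the summed level was 12.2 to 12.98 CPM in the control libraries and 7.69 to 7.71 CPM in OE, while of the astrocyte markers GFAP had 6 to 18 counts and AQP4 none. The part of these differences in the HOXD3, HOXD4 and HOXC6 values was not tested.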

How the data were processed

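The 4 SK-N-SH libraries took their groups and replicate numbers from the sample labels. After quality control (FastQC) and trimming (Trimmomatic), the authors aligned reads to hg19 using Bowtie2. The deposited values are whole-number transcript counts with no normalization. The submitters' processing notes list Bowtie2 2.0.4, Picard 2.21.6, StringTie 2.1.6 and DESeq2 with no role. The counting tool, annotation release and use of strand are not given in the sources used here.

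Counts of 196520 transcripts were summed per gene ID. After filterByExpr and TMM normalization, genes were compared by the quasi-likelihood test of edgeR 4.0.16 (R 4.3.3) with no covariates, p-values were adjusted by Benjamini and Hochberg over all genes tested, and calls used the study's thresholds. The study's methods name DESeq2, run here as an alternative (1.42.0). Levels per kb used merged exons of the lifted GENCODE annotation for GRCh37. ENSG00000273266.1 is not in it, and the length of its own transcript was used. Scripts were tested on simulated counts. Where a library had no count, up to 3 counts were taken as possible.

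The members and lists were chosen with earlier results of these data known. Values are given for each HOX gene with a mean of at least 1 CPM, an unadjusted p under 0.05, or OE libraries apart from both controls by at least 1 on the log2 scale, and for list members with an unadjusted p under 0.05 or needed to show that a list is near 0. HOXD12, HOXC11, HOXC12, HOXA10, HOXA11 and the low HOXB genes, MEIS2, RARG, SKAP2, CBX5 and MTX2 were named after their values were seen. The lists were TALE cofactors, Polycomb and Trithorax proteins, upstream factors, noncoding RNAs of the clusters, flanking genes and cell type markers. Alternatives were RLE and upper-quartile normalization, DESeq2, limma-voom (limma 3.58.1), other count minimums, the transcript with the highest mean count, a replicate block and leaving out each library. Promoters came from RefSeq, GRCh38.p14. Figures were drawn with matplotlib 3.10.9. Some list members and sequences are not reported here.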

Additional observations from a re-analysis of the deposited data

How the results depend on the processing

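The number of HOX genes at the study's thresholds was 0 in every edgeR setting, where 0 to 9 of all genes passed, so that this count says nothing of stability. It was 2 with DESeq2 on the same genes (1800 of all genes), 2 with DESeq2 on genes with at least 10 counts in total (1722 of 24795, added after the values were seen) and 3 at an unadjusted p under 0.05 (4269 of 20528). Expressed members numbered 11 to 13 over all alternatives and 12 to 13 with each library left out. The log2 ratio of the HOXC sum was -0.031 with upper-quartile normalization, -0.20 without the gene with the most counts, and -0.095 to -0.056 with each library left out. That of the HOXD sum was 0.33 with the transcript with the highest mean count and 0.20 to 0.30 with each library left out. The median log2 fold change of the HOX genes was 0.33 with a minimum of 1 count in total and 0.0046 to 0.22 with each library left out, 0.22 without OE replicate 1 and 0.10 without vector control replicate 1, over the 14 to 16 HOX genes that then passed the filter. Over the same 14 genes it ran from -0.14 without vector control replicate 2 to 0.05 without OE replicate 1. HOXD3 kept its direction, with log2 fold changes of 1.06 to 2.15 (0.84 for its sum with HOXD4), and its adjusted p ran from 6.4e-16 to 0.778. HOXD4 kept its direction, with adjusted p of 2.2e-07 to 0.296. With each library left out, HOXC10 ran from -1.38 to 0.53, HOXC9 from -0.43 to 0.20, HOXD11 from -0.46 to 0.22, HOXD8 from -0.28 to -0.11, HOXD9 from 0.20 to 0.44, HOXD10 from 0.40 to 0.81, HOXC4 (ENSG00000273266.1) from 0.14 to 0.35, the minor HOXC4 ID from 0.69 to 1.86, HOXC5 from -0.20 to -0.13 and HOXC8 from -0.11 to 0.08. The sums of HOXD3 with HOXD4 and of the HOXC4 IDs and the non-legacy setting of edgeR were also added after the values were seen. Causes were not tested.

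Same-numbered libraries of the groups share only a number in the labels, and their deviations did not go together (r = -0.0147 over 20120 genes). With the replicate block 0 HOX genes and 0 of all genes passed the study's thresholds, and 3060 genes had an unadjusted p under 0.05 against 4269 without it. Genes under 3 counts per library could not be compared at this depth.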
